A study of Mus musculus with 4 samples.

Results

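Genes of sterol and fatty acid synthesis, of their control and of cholesterol export were followed in mouse CD4+ T cells that had been activated with or without dopamine. The 33 genes were chosen by name for their known roles, with earlier results of these data known. Counts among them, set beside all tested genes below, are therefore descriptions. Each gene was matched to its Ensembl ID through GENCODE M21, out of 38282 IDs in the deposited tables. They comprise 4 regulators, 1 intracellular sterol carrier, 18 enzymes of sterol synthesis, 8 enzymes of fatty acid synthesis and 2 cholesterol exporters. The study put naive CD4+ T cells from the spleens of C57BL/6 mice into culture under the Th0 condition, which is activation without lineage-steering cytokines. Libraries labelled Th0 had no dopamine and libraries labelled Th0+Dopa had dopamine. All cells were harvested on day 4, and each group has 2 libraries, numbered 2 and 3. The sources used here do not give the dose and timing of dopamine, the age of the mice or whether animals were pooled.

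Animal cells build cholesterol from acetyl-CoA through mevalonate, farnesyl diphosphate, squalene and lanosterol. SREBP transcription factors switch on most enzymes of that route, and those of fatty acid synthesis, when membranes of the endoplasmic reticulum are poor in sterol. INSIG proteins hold SREBP and its escort SCAP back when sterol is plentiful. The liver X receptors (LXR) answer to oxysterols and induce the exporters Abca1 and Abcg1, and they also induce Srebf1 and Scd1. T cells that divide after activation draw on SREBP for new membrane, and LXR is known to restrain their proliferation.

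Expression is in FPKM as the authors deposited it, a count of sequenced fragments divided by transcript length and library size. The values came in 2 tables made separately, one for the libraries numbered 2 and one for those numbered 3, so differences were taken within a table. A difference below is the mean of the 2 within-table differences in log2(FPKM + 1), Th0+Dopa minus Th0, with its standard error after ±. This scale understates the change of genes with low FPKM. The test was limma with the table as a block, over 11423 genes with a mean of at least 1 FPKM, and a gene was called where the Benjamini-Hochberg adjusted p over all of them was under 0.05. Nothing in the labels says that libraries of a group came from different cultures or mice, so the p-values reflect the spread among these 4 libraries only, and that spread may be technical.

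The libraries differed in more than these genes. Summed FPKM were 687066 and 715110 in Th0 and 880583 and 794873 with dopamine (libraries 2 and 3 in this order, here and below), and small RNA genes took 18.3% and 16.5% of them in Th0 and 26.0% and 20.6% with dopamine. Estimated from the steps between low values, 1 fragment added about 0.159, 0.21, 0.164 and 0.163 FPKM to a transcript of 1 kb in Th0 2, Th0 3, Th0+Dopa 2 and Th0+Dopa 3. Fewer genes were above 0 with dopamine, 15974 and 16276 against 17833 and 19177. Mitochondrial genes took 5.64% and 8.41% of summed FPKM in Th0 and 1.55% and 3.35% with dopamine. Of 9 T cell markers tested 3 were called higher (Cd3d, Cd5 and Cd6) and 1 lower (Trac), against 6.28% and 4.39% of all tested genes. Levels ran from 7.29 to 16.2 FPKM for Cd3e, from 274 to 526 FPKM for Trac and from 115 to 123 FPKM for Cd4. Macrophage and dendritic cell markers were called lower with dopamine in 10 of 11 tested genes, against 4.39% of all tested genes. The summed FPKM of all 12 listed was 429 and 574 in Th0 and 56.7 and 57.4 with dopamine. Granulocyte, basophil and mast cell markers were called lower in 8 of 8 tested genes, against the same 4.39%. The summed FPKM of the 9 listed was 446 and 593 in Th0 and 50.04 and 46.5 with dopamine. Ncr1, a marker of NK cells, was listed at 0 in all 4 libraries. In bulk RNA, fewer cells of a type and less RNA per cell cannot be told apart. The part of these shifts in the results below was not tested.

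With dopamine, genes of both synthesis and export were called higher, and on the log2(FPKM + 1) scale the exporter Abcg1 had the largest difference of the 33. With a pseudocount of 0.5 or 0.1 that place went to Scd1 (2.27 and 3.24, against 2.05 and 2.14 for Abcg1). Limma called 13 of 33 genes higher and 0 lower, against 6.28% called higher and 4.39% called lower among all tested genes. At an unadjusted limma p under 0.05, 25 of the 33 were higher and 0 lower, against 1789 higher and 1388 lower of 11423 tested genes. FPKM was higher with dopamine in both tables for 31 of 33 genes, against 37.6% of all tested genes, and for 29 both dopamine libraries lay above both Th0 libraries, against 31.4%. None of the 33 was lower in both tables (0 of 33, against 32.3% of all tested genes). At least 2-fold higher FPKM in both tables was found for 5 of 33, Fdps, Abca1, Abcg1, Scd1 and Fads2, against 2.89%. The 33 genes had a median difference of 0.62, against 0.03 over all tested genes. All 33 passed the filter, but Abca1 and Scd1 passed only because their dopamine libraries were high, with Th0 means of 0.715 and 0.238 FPKM. These 2 genes had to differ to be tested, and the counts above include them.

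The count of calls rests on the scaling, on the model and on having all 4 libraries. Without limma's trend 1 of the 33 genes was called higher, Abcg1. Without the table as a block 6 were, and Srebf1, Hmgcs1, Mvd, Fdps, Fdft1, Sqle and Scd1 lost their calls. After scaling so that every library had the same summed FPKM (a common sum), the median of all tested genes fell to -0.20, calls among all genes turned from 58.9% higher to 26.1% higher, and 8 of the 33 were called higher. In that scaling Scap, Acly and Elovl6 turned slightly negative (-0.07, -0.02 and -0.07), and 29 of 33 differences stayed above 0. With small RNA genes left out before that scaling, the median of all genes was -0.11, 33.5% of all calls were higher, and 14 of the 33 genes were called higher. Leaving out Th0 2, Th0 3, Th0+Dopa 2 or Th0+Dopa 3 left no gene of the 33 called in limma. The median difference of the sterol enzymes was then 0.59, 0.54, 0.44 and 0.73 in this order. Those smaller fits called 13 higher and 9 lower, 1 and 2, 0 and 0, and 0 and 0 among all tested genes.

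**Figure D1:**
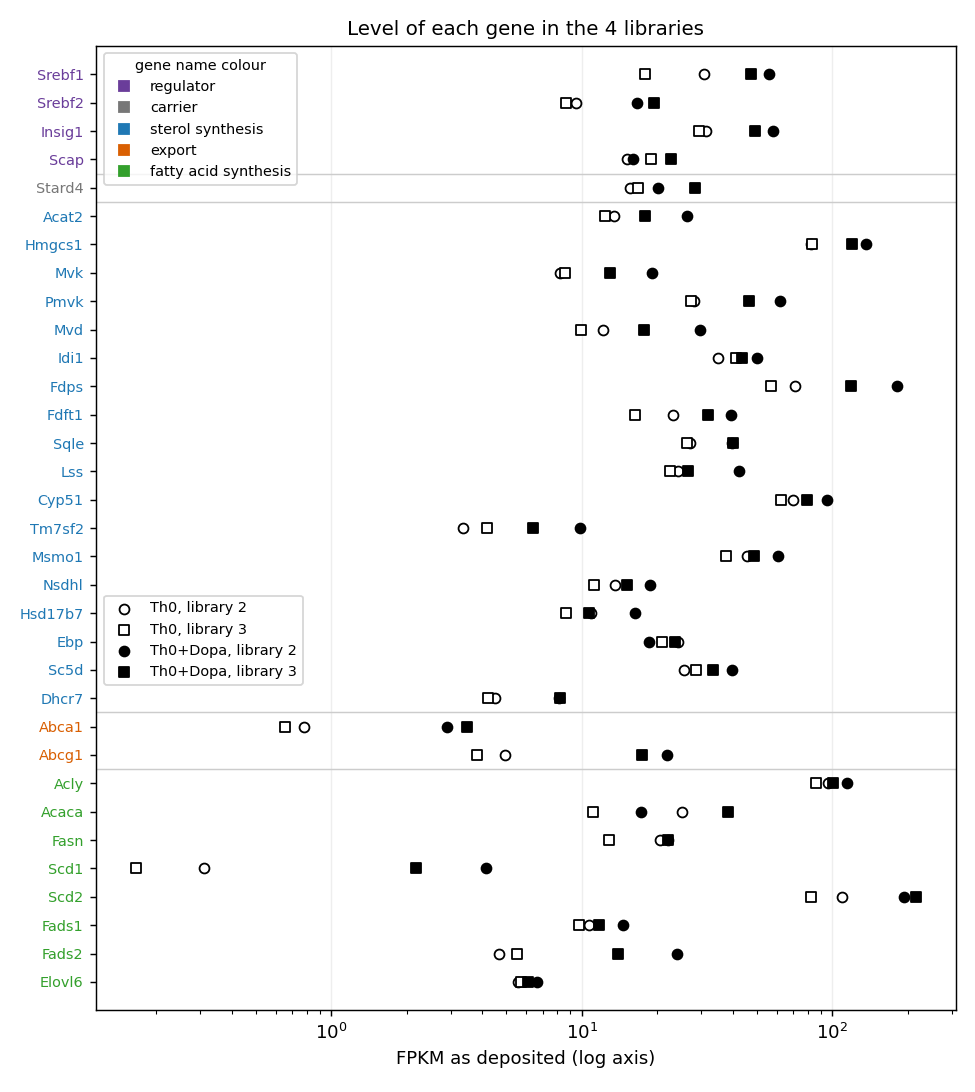
FPKM of the 33 genes in each of the 4 libraries on a log axis, with open symbols for Th0, filled symbols for Th0+Dopa, circles for libraries 2 and squares for libraries 3. Filled symbols lie right of both open symbols in 29 of 33 rows, and the exceptions are Scap, Hsd17b7, Ebp and Acaca.

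Of the 2 exporters, 1 was called higher, against 6.28% of all tested genes. Abcg1 (ENSMUSG00000024030, chromosome 17, 31057675 to 31117988, GRCm38), a transporter that passes cholesterol to HDL particles, stood at 4.95 and 3.81 FPKM in Th0 and 21.9 and 17.4 FPKM with dopamine. Both dopamine libraries lay far above both Th0 libraries, at 4.42 and 4.57 times the Th0 value of the same table. Its difference of 1.94 ± 0.16 (limma adjusted p = 0.00301) ranked 116 of 11423 on this scale. Abca1 (chromosome 4, 53030787 to 53159895), which loads cholesterol onto apolipoprotein A-I, stood at 0.778 and 0.653 FPKM in Th0 and 2.898 and 3.495 FPKM with dopamine. The groups did not overlap and the FPKM ratios were 3.73 and 5.35, but its difference of 1.29 ± 0.30 just missed the threshold (limma adjusted p = 0.0513, 95% interval 0.55 to 2.03). It passed with a pseudocount of 0.1 or 0.5 in place of 1 (limma adjusted p = 0.0448 and 0.0475) and with a common sum without small RNA genes (0.0238). It did not pass with a common sum (limma adjusted p = 0.0615), with no filter (0.0980) or after a correction for GC content and transcript length (0.0618). Nor did it pass without trend (limma adjusted p = 0.0581) or without the block (0.0567). Abca1 was tested only because its dopamine libraries were high, so these p-values are descriptions. These Abca1 levels correspond to about 50.2 and 31.9 fragments in Th0 and 181 and 220 with dopamine, if all came from its longest transcript of 10262 bases. Macrophages also express both exporters, and the macrophage markers above were lower in the same dopamine libraries. Which cells the exporter RNA came from was not tested.

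Set against synthesis, export had the larger mean difference in each table. Of the 2 exporters, Abca1 was tested only because its dopamine libraries were high, so the export mean is given as a description. Averaged over the 2 exporters, the difference was 1.54 in the table of libraries 2 and 1.69 in that of libraries 3. Averaged over the 26 synthesis enzymes it was 0.71 and 0.62. Synthesis minus export was therefore -0.83 and -1.07, and it lay between -1.32 and -0.85 under every alternative tried. Within a library this ratio owes nothing to scaling: the 2 exporters together made up 1.096% and 0.925% of the summed FPKM of the 18 sterol enzymes in Th0 and 2.78% and 2.98% with dopamine. Summed FPKM of the sterol enzymes themselves went from 523 to 894 in libraries 2 and from 482 to 701 in libraries 3. That of the fatty acid enzymes went from 272 to 397 and from 213 to 412. Much of the latter was the desaturase gene Scd2 alone, which went from 109 to 194 and from 82.1 to 217 FPKM. With 2 tables no test of synthesis against export was run, and genes of a group are not replicates of a condition.

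**Figure D2:**
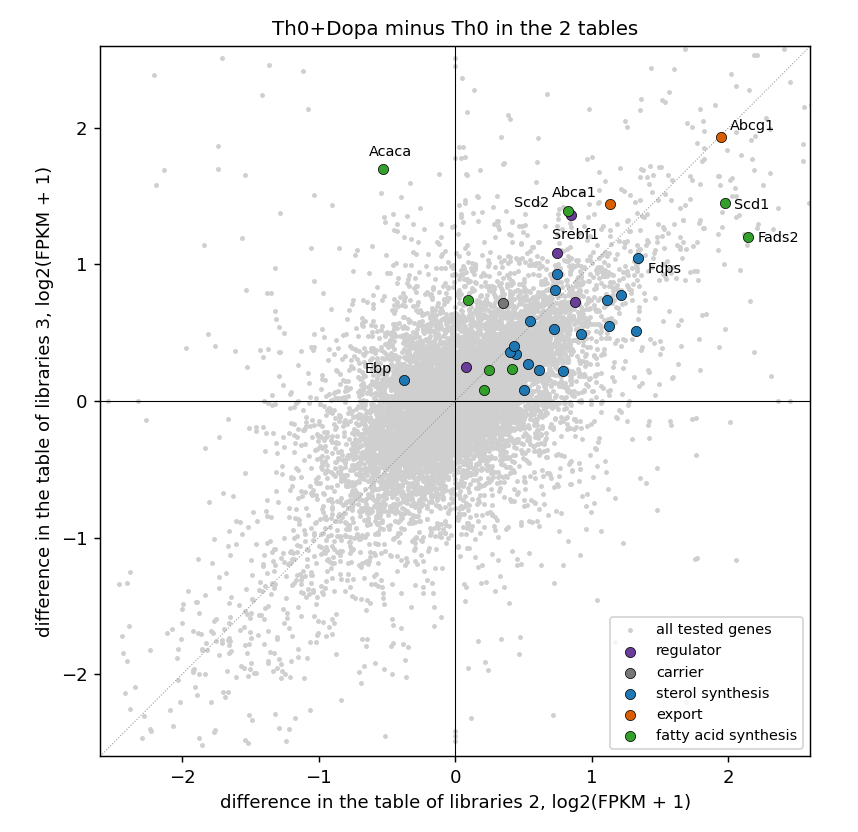
Difference between Th0+Dopa and Th0, in log2(FPKM + 1), in the table of libraries 2 (horizontal) and in that of libraries 3 (vertical), with all tested genes in grey and the 33 genes coloured by role. Of the 33 genes 31 lie upper right of the axes' origin, Abcg1 almost on the diagonal at 1.94 in both tables, while Ebp and Acaca lie in the upper left, and 227 tested genes fall outside the axes at 2.6.

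Of the 4 regulators, 3 were called higher and 0 lower, against 6.28% and 4.39% of all tested genes. Srebf1 (ENSMUSG00000020538, chromosome 11, 60199089 to 60222581), the SREBP gene tied most to fatty acid synthesis, stood at 30.7 and 17.9 FPKM in Th0 and 55.9 and 47.6 FPKM with dopamine. Srebf2 (chromosome 15, 82147181 to 82205379), the SREBP gene tied most to sterol synthesis, stood at 9.52 and 8.62 FPKM in Th0 and 16.6 and 19.4 FPKM with dopamine. Insig1, which retains SREBP in the endoplasmic reticulum and is itself a target of SREBP, stood at 31.2 and 29.5 FPKM in Th0 and 58.02 and 49.3 FPKM with dopamine. In all 3 genes both dopamine libraries were above both Th0 libraries. The differences were 1.10 ± 0.16 for Srebf1 (limma adjusted p = 0.0147), 0.91 ± 0.16 for Srebf2 (adjusted p = 0.0279) and 0.80 ± 0.12 for Insig1 (adjusted p = 0.0152). Srebf1 exceeded Srebf2 in every library, by 3.23 and 2.08 times in Th0 and 3.36 and 2.46 times with dopamine, and the ratio differed more between the tables than between the groups. Scap, the sterol sensor that escorts SREBP to the Golgi, stood at 15.1 and 18.9 FPKM in Th0 and 16.04 and 22.7 FPKM with dopamine. Its groups overlapped, and the difference of 0.17 ± 0.14 was not called (adjusted p = 0.489, 95% interval -0.18 to 0.51). After a correction for GC content and transcript length Srebf1 and Srebf2 no longer passed (0.82 and 0.75, limma adjusted p = 0.0508 and 0.0531), and Srebf2 and Insig1 did not pass with a common sum (0.68 and 0.55, adjusted p = 0.0830 and 0.0511). Without Th0 3 the difference of Srebf1 was 0.69 (adjusted p = 0.375).

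Among related genes of SREBP processing 0 of 3 were called, against 10.7% called in either direction among all tested genes. Of these 3, Insig2, Mbtps1 and Mbtps2, the largest difference was that of Insig2, the second retention protein, at 0.16 ± 0.20 (limma adjusted p = 0.646). Mbtps1, the Golgi protease that makes the opening cut in SREBP, stood at 24.3 and 24.1 FPKM in Th0 and 25.4 and 25.3 FPKM with dopamine. At an unadjusted p under 0.05 these 3 genes also gave 0 calls. Stard4, a soluble carrier that moves cholesterol between membranes and is a known SREBP target, stood at 15.7 and 16.7 FPKM in Th0 and 20.2 and 28.2 FPKM with dopamine, without overlap of the groups. Its difference of 0.53 ± 0.15 was not called (adjusted p = 0.0874, 95% interval 0.15 to 0.91).

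Of the 18 sterol enzymes 6 were called higher and 0 lower, against 6.28% and 4.39% of all tested genes. FPKM was higher in both tables for 17 of them, against 37.6%, and their median difference was 0.60, against 0.03. At the adjusted threshold the calls lay in the upper and middle part of the route. Called were 4 of the 7 enzymes up to farnesyl diphosphate, 2 of the 3 from squalene to lanosterol, and 0 of the 8 after lanosterol. Median differences of these stages were 0.84, 0.57 and 0.41, and this order was not tested. The 95% intervals separated the stages less, and lay above 0 for all sterol enzymes except Idi1 before lanosterol and Ebp after it. With GC content and length corrected, Cyp51 and Msmo1 after lanosterol were called, and Mvd before it was not. The place of the calls therefore does not show that the enzymes after lanosterol were unchanged.

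At the head of the route, Acat2, the cytosolic thiolase that joins acetyl-CoA units, stood at 13.4 and 12.4 FPKM in Th0 and 26.3 and 17.8 FPKM with dopamine. Hmgcs1, HMG-CoA synthase, stood at 82.5 and 82.7 FPKM in Th0 and 136 and 119.5 FPKM with dopamine. Dopamine libraries were above Th0 libraries in both genes. Hmgcs1 was called at 0.62 ± 0.11 (limma adjusted p = 0.0262), and Acat2 was not at 0.70 ± 0.16 (adjusted p = 0.0527). With a common sum Hmgcs1 was not called (0.37, limma adjusted p = 0.0860). In GENCODE M21, 39.1% of the 50-base stretches of Acat2 transcripts also occur in other genes, most of them in its neighbour Acat3, which was low (0.536 to 1.29 FPKM over the 4 libraries). For Hmgcs1 12.1% of exonic bases overlap an antisense gene, which has no row among the deposited values. The sources used here do not say whether counting used strand.

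The 3 mevalonate steps behaved alike in direction. Mvk, mevalonate kinase, stood at 8.21 and 8.59 FPKM in Th0 and 19.1 and 13.00 FPKM with dopamine. Pmvk, phosphomevalonate kinase, stood at 28.1 and 27.4 FPKM in Th0 and 61.8 and 46.3 FPKM with dopamine. Mvd, the decarboxylase that yields isopentenyl diphosphate, stood at 12.2 and 9.93 FPKM in Th0 and 29.6 and 17.8 FPKM with dopamine. In each of them Th0+Dopa 2 was the highest library and both Th0 libraries lay below both dopamine libraries. Pmvk was called at 0.92 ± 0.14 (limma adjusted p = 0.0160) and Mvd at 1.00 ± 0.17 (adjusted p = 0.0222), while Mvk with 0.84 ± 0.20 was not (adjusted p = 0.0526). Mvd lost its call once GC content and length were corrected for (0.76, limma adjusted p = 0.0589), and without Th0+Dopa 2 its difference was 0.61 (adjusted p = 0.328).

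Around farnesyl diphosphate lay the largest rise among the 18 sterol enzymes. Fdps (ENSMUSG00000059743, chromosome 3, 89093588 to 89101959), farnesyl diphosphate synthase, stood at 71.04 and 56.8 FPKM in Th0 and 181 and 118 FPKM with dopamine. The FPKM ratios were 2.55 and 2.08, and the difference of 1.19 ± 0.12 was called (limma adjusted p = 0.00506). Of its exonic bases 26.7% overlap Gm43738 on the same strand, a gene without a row among the deposited values. Whether reads from that gene entered the value of Fdps was not tested. Idi1, the isomerase just before it, stood at 34.99 and 41.2 FPKM in Th0 and 50.1 and 43.6 FPKM with dopamine. The groups did not overlap, but Th0 3 and Th0+Dopa 3 were close, and the difference of 0.29 ± 0.14 was not called (adjusted p = 0.248, 95% interval -0.06 to 0.65).

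From squalene to lanosterol all 3 enzymes were higher in both tables. Fdft1, squalene synthase, stood at 23.1 and 16.3 FPKM in Th0 and 39.5 and 32.1 FPKM with dopamine. Sqle, squalene epoxidase and a rate-setting enzyme of the route, stood at 26.97 and 26.4 FPKM in Th0 and 39.9 and 40.1 FPKM with dopamine. Lss, which closes squalene epoxide into lanosterol, stood at 24.2 and 22.6 FPKM in Th0 and 42.6 and 26.4 FPKM with dopamine. Sqle was the most even of them, with ratios of 1.48 and 1.52, whereas Lss had 1.76 and 1.17. Fdft1 with 0.84 ± 0.13 (limma adjusted p = 0.0172) and Sqle with 0.57 ± 0.12 (adjusted p = 0.0398) were called, and Lss with 0.50 ± 0.17 was not (adjusted p = 0.124). Ctsb, a lysosomal protease gene on the opposite strand, overlaps 18.3% of the exonic bases of Fdft1. Its level was 13.4 and 14.1 FPKM in Th0 and 11.1 and 11.5 FPKM with dopamine. Whether reads of the 2 genes were shared was not tested. Neither Fdft1 nor Sqle passed with a common sum (0.59 and 0.32, limma adjusted p = 0.0701 and 0.214).

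After lanosterol no enzyme was called, although 7 of 8 were higher in both tables. Dhcr7, a reductase that forms cholesterol, stood at 4.51 and 4.23 FPKM in Th0 and 8.13 and 8.201 FPKM with dopamine. Tm7sf2, a sterol reductase, stood at 3.34 and 4.18 FPKM in Th0 and 9.84 and 6.397 FPKM with dopamine. These 2 genes had the highest differences of the stage, 0.77 ± 0.19 (limma adjusted p = 0.0591) and 0.92 ± 0.26 (adjusted p = 0.0830), on the lowest levels of the route. Of the exonic bases of Tm7sf2 12.1% overlap Vps51 on the same strand, which stood at 18.7 and 33.2 FPKM in Th0 and 29.6 and 28.9 FPKM with dopamine. Cyp51, the lanosterol demethylase, stood at 69.9 and 62.4 FPKM in Th0 and 95.5 and 79.7 FPKM with dopamine. Msmo1, a methylsterol oxidase, stood at 45.6 and 37.7 FPKM in Th0 and 60.6 and 48.5 FPKM with dopamine. Their differences were smaller, 0.40 ± 0.11 and 0.38 ± 0.11, with adjusted p = 0.0739 and 0.0904 in limma, and with GC content and length corrected both passed (0.51 and 0.54, adjusted p = 0.0406 and 0.0418). Nsdhl, a sterol dehydrogenase, stood at 13.6 and 11.2 FPKM in Th0 and 18.7 and 15.1 FPKM with dopamine. Sc5d, a sterol desaturase, stood at 25.6 and 28.5 FPKM in Th0 and 39.7 and 33.5 FPKM with dopamine. Hsd17b7, a sterol ketoreductase, stood at 10.9 and 8.66 FPKM in Th0 and 16.2 and 10.7 FPKM with dopamine, and its Th0+Dopa 3 value lay just below its Th0 2 value. In Nsdhl and Sc5d the groups did not overlap. Their differences were 0.42 ± 0.14, 0.42 ± 0.14 and 0.41 ± 0.16, with limma adjusted p from 0.127 to 0.179. Ebp, the sterol isomerase, was the exception at 24.3 and 20.97 FPKM in Th0 and 18.5 and 23.5 FPKM with dopamine. It was lower in the table of libraries 2 and higher in that of libraries 3, with a difference of -0.11 ± 0.17 (adjusted p = 0.724, 95% interval -0.53 to 0.31).

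**Figure D3:**
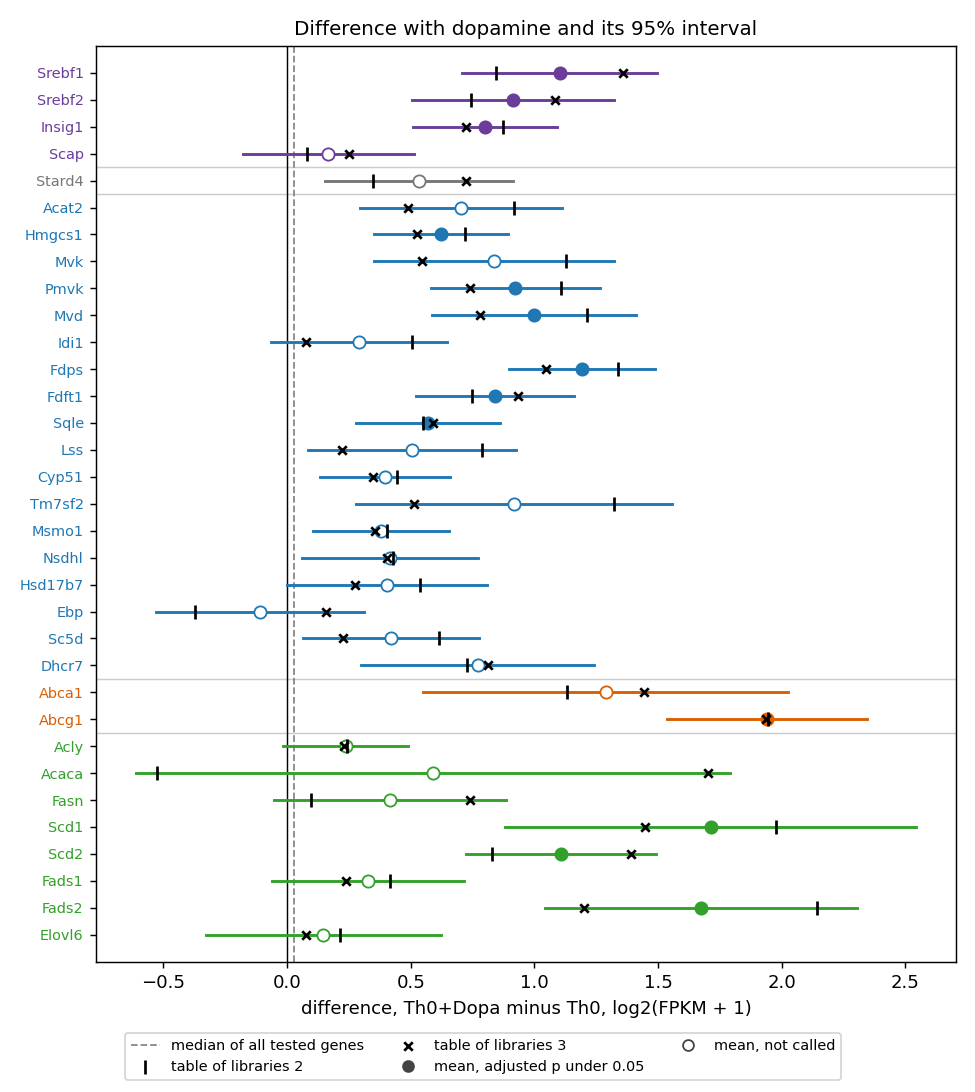
Difference between Th0+Dopa and Th0 in log2(FPKM + 1) for each gene, as the mean of both tables (circle, filled where limma adjusted p was under 0.05) with its 95% interval (line) and the value in each table (bar and cross). Abcg1, Scd1 and Fads2 lie farthest right, sterol enzymes after Lss are all open, and the crosses and bars of Acaca lie on opposite sides of 0.

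In the branch from farnesyl diphosphate to other isoprenoids 0 of 6 tested genes were called, against 10.7% in either direction among all tested genes, and the median difference was -0.03. The largest was that of Dhdds, a subunit of the enzyme that makes dolichol precursors, at 0.64 ± 0.17 (limma adjusted p = 0.0748). At an unadjusted p under 0.05, Dhdds was higher and Nus1, its partner subunit, was lower (-0.37 ± 0.13). Among 4 tested genes that supply acetyl-CoA, 1 was called higher and 0 lower, against 6.28% and 4.39% of all tested genes. Slc25a1, the mitochondrial citrate carrier, stood at 18.96 and 18.3 FPKM in Th0 and 36.6 and 32.1 FPKM with dopamine. It was called at 0.85 ± 0.13 (limma adjusted p = 0.0163).

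Of the 8 enzymes of fatty acid synthesis 3 were called higher and 0 lower, against 6.28% and 4.39% of all tested genes. The 3 are the desaturases Scd1, Scd2 and Fads2, of which Scd1 was tested only because its dopamine libraries were high. The median difference over the 8 was 0.50, with 0.33 and 0.97 in the 2 tables, and it was 0.93 without Th0 2 and 0.18 without Th0 3. Scd1 (ENSMUSG00000037071, chromosome 19, 44394455 to 44407879), a stearoyl-CoA desaturase that makes monounsaturated fatty acids, stood at 0.3102 and 0.166 FPKM in Th0 and 4.16 and 2.18 FPKM with dopamine. The ratios of 13.4 and 13.2 were the highest of the 33 genes, but the Th0 values rest on about 9.43 and 3.81 fragments if all came from its longest transcript. Its difference of 1.71 ± 0.34 was called (limma adjusted p = 0.0348). Scd2 (chromosome 19, 44293674 to 44306864), the neighbouring desaturase gene, stood at 109 and 82.1 FPKM in Th0 and 194 and 217 FPKM with dopamine. It was the most abundant of the 33 genes in the dopamine libraries and was called at 1.11 ± 0.15 (adjusted p = 0.0137). Scd1 made up only 0.284% and 0.201% of the summed FPKM of the pair in Th0 and 2.098% and 0.994% with dopamine. Of the 4888 50-base stretches of Scd1, 223 (4.56%) occur in another gene, 145 of them in Scd2. The further copies Scd3 and Scd4 stayed at or under 0.194 FPKM. With GC content and length corrected Scd1 just missed the threshold (1.67, limma adjusted p = 0.0508).

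Among the desaturases of polyunsaturated fatty acids, Fads2 rose and Fads1 was not called. Fads2 (chromosome 19, 10062765 to 10101746), which starts the conversion of essential fatty acids, stood at 4.68 and 5.53 FPKM in Th0 and 24.1 and 14.01 FPKM with dopamine. Its difference was 1.67 ± 0.25 (limma adjusted p = 0.0168), with ratios of 5.15 and 2.54. Fads1, its neighbour on the chromosome and the next desaturase of the same route, stood at 10.7 and 9.78 FPKM in Th0 and 14.6 and 11.7 FPKM with dopamine. Its groups did not overlap, and its difference of 0.33 ± 0.16 had a 95% interval of -0.06 to 0.72 (adjusted p = 0.239). The ratio of Fads2 to Fads1 was 0.438 and 0.565 in Th0 and 1.65 and 1.197 with dopamine, so their order reversed in both tables.

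None of the 4 enzymes that make or lengthen the saturated chain was called. Acly, which cuts citrate to acetyl-CoA, stood at 96.2 and 85.8 FPKM in Th0 and 114 and 101 FPKM with dopamine. Fasn, fatty acid synthase, stood at 20.6 and 12.8 FPKM in Th0 and 22.1 and 22.04 FPKM with dopamine. Elovl6, which elongates palmitate, stood at 5.59 and 5.72 FPKM in Th0 and 6.64 and 6.09 FPKM with dopamine. Dopamine libraries were the higher ones in all 3, but by little, and for Fasn mostly in the table of libraries 3. Differences were 0.24 ± 0.10, 0.42 ± 0.19 and 0.15 ± 0.19, with 95% intervals of -0.01 to 0.49, -0.05 to 0.89 and -0.33 to 0.62, and limma adjusted p of 0.199, 0.217 and 0.669. Acaca, acetyl-CoA carboxylase and the committed step of the pathway, went in opposite directions in the tables, at 25.2 and 11.1 FPKM in Th0 and 17.2 and 38.3 FPKM with dopamine. Its difference of 0.59 ± 0.48 had the widest interval of the enzymes that were not called (-0.61 to 1.79, limma adjusted p = 0.482). Of its 50-base stretches 30.4% also occur in other genes, nearly all in the annotated copy Gm5182. That copy has no row among the deposited values.

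Of 13 tested genes of fatty acid elongation and activation outside the list, 1 was called higher and 0 lower, a share near the 6.28% and 4.39% of all tested genes, and their median difference was 0.09. The called gene was Mcat, the mitochondrial malonyl transferase, at 0.69 ± 0.15 (limma adjusted p = 0.0445). The largest difference of these 13 was that of Acsl1, an enzyme that activates long-chain fatty acids, which stood at 7.31 and 7.01 FPKM in Th0 and 3.22 and 3.63 FPKM with dopamine (-0.88 ± 0.21, adjusted p = 0.0519). Among 5 other known SREBP targets 1 was called higher, against 6.28% of all tested genes. The median difference of the 5 was 0.49, against 0.03 over all tested genes. The called one was Mid1ip1, which activates acetyl-CoA carboxylase. Mid1ip1 stood at 13.2 and 12.96 FPKM in Th0 and 38.6 and 37.7 FPKM with dopamine and differed by 1.48 ± 0.13 (adjusted p = 0.00341), nearly the same in both tables. Of 6 tested genes of LXR, esterification and lipoprotein uptake, 1 was called higher and 0 lower, against 6.28% and 4.39% of all tested genes. Their median difference was 0.43. The called gene was Lrp8, a lipoprotein receptor, at 0.84 ± 0.17 (limma adjusted p = 0.0394). The LXR gene Nr1h2 stood at 20.9 and 27.2 FPKM in Th0 and 28.97 and 24.3 FPKM with dopamine and was not called (0.15 ± 0.18, adjusted p = 0.638), while the other LXR gene, Nr1h3, lay under the filter at 0.604 and 0.549 FPKM in Th0 and 0.165 and 0.241 FPKM with dopamine, lower in both tables. The LXR targets Lpcat3 and Mylip had 0.51 ± 0.13 (adjusted p = 0.0682) and 0.45 ± 0.24 (adjusted p = 0.283). Slc25a1, Mcat and Lrp8 lost their calls once GC content and length were corrected for (limma adjusted p = 0.0979, 0.411 and 0.0730).

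**Figure D4:**
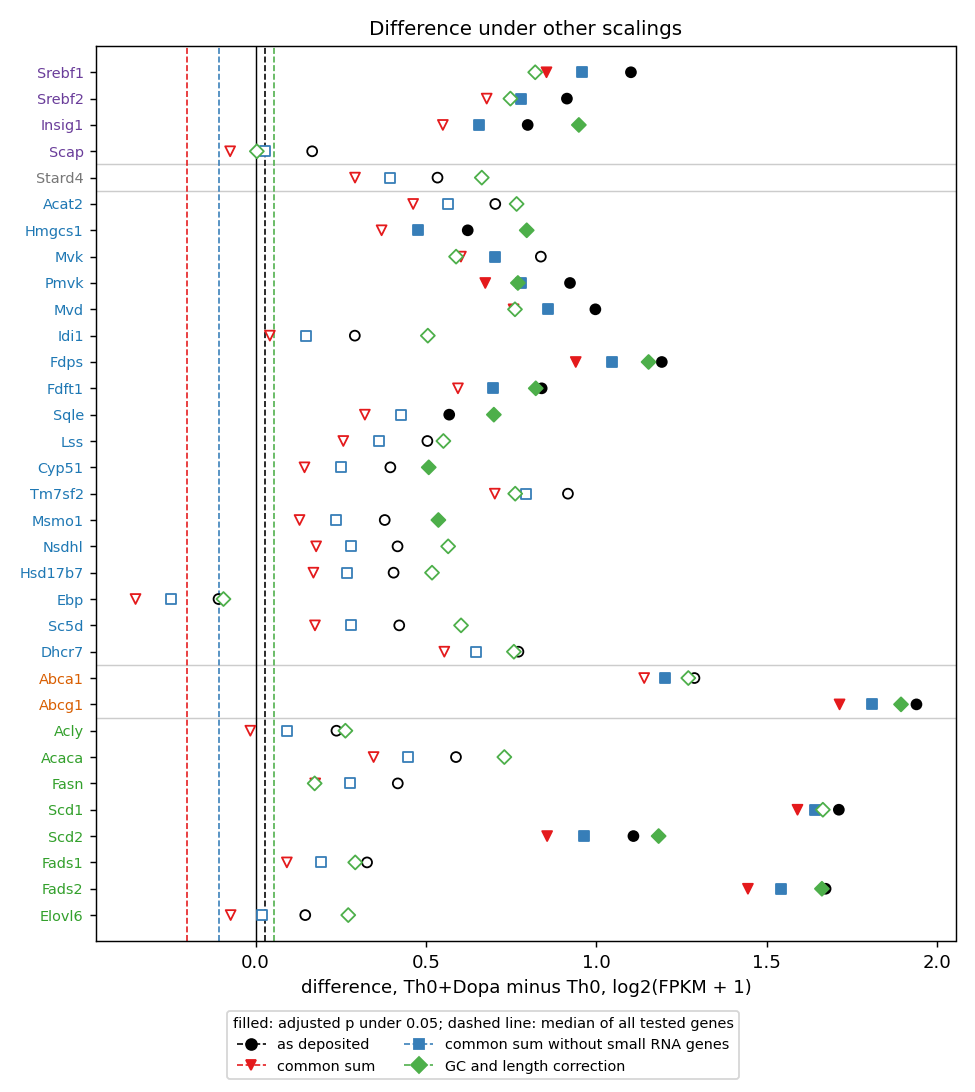
Difference between Th0+Dopa and Th0 in log2(FPKM + 1) for each gene as deposited, with libraries scaled to a common sum, with that scaling after small RNA genes were left out, and after a GC and length correction; filled symbols had an adjusted p under 0.05 in limma and dashed lines are the median of all tested genes. The common sum moves the 33 genes left together with the median of all genes (0.03 to -0.20), Abcg1, Fads2, Scd2, Fdps and Pmvk stay filled in all 4 settings, and Scap, Acly and Elovl6 cross 0.

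Promoter windows were read for the genes of all roles, called or not. RefSeq (GRCm38.p6) gave 300 bases, 250 before to 50 after a start of transcription, for 25 of the 33 genes. Abcg1, Scd1, Scd2, Fads1, Fdps, Fdft1, Sqle and Stard4 had none in the table used. Motifs were searched on both strands, and the share of all 27025 genes with a window that hold the same letters is given beside each count. A gene counted where any of its windows held a match. The 27025 genes were not limited to those expressed in these libraries. The motifs were chosen with earlier results of these data known, and a match is a description of letters, not of binding.

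The direct repeat spaced by 4 bases that LXR is known to bind, searched as 2 copies of GGTNA with any 5 bases between them, was found in 3 of the 25 genes against 0.818% of all genes. The 3 genes are the exporter Abca1, the regulator Srebf1 and the synthase Fasn, which differed by 1.29 ± 0.30, 1.10 ± 0.16 and 0.42 ± 0.19, and of these only Srebf1 was called. They are shown because 1 exporter, 1 regulator and 1 synthesis enzyme share these letters, with the match in capitals and all bases upstream of the start.
Abca1, chr4:53159928-53159982, minus strand: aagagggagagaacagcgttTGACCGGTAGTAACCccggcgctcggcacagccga
Srebf1, chr11:60210619-60210673, minus strand: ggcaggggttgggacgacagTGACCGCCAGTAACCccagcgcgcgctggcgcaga
Fasn, chr11:120824738-120824792, minus strand: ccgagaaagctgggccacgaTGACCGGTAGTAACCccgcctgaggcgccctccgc
Counted from the start of transcription, the match begins at base -67 in Abca1, -182 in Srebf1 and -225 in Fasn. Abca1 and Fasn hold the same 15 bases, and Srebf1 shares 13 of 15 with Abca1. The Fasn window also holds CCAAT boxes, described next. In Srebf1 the match lies in 1 of its 3 windows, that of the start farthest downstream in the gene.

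The sterol regulatory element, searched as TCACNCCAC, was found in Hmgcs1 alone among the 25 genes (1.44% of all genes), and the relaxed form TCACNCNAC in Nsdhl as well (3.15% of all genes). The CCAAT box, which the factor NF-Y binds beside SREBP in many sterol genes, was searched as CCAAT and was far more common. It was found in 14 of 15 sterol enzymes with a window, in 3 of 4 regulators and in 2 of 5 fatty acid enzymes, 19 of 25 in all, against 41.1% of all genes. In Dhcr7 the CCAAT boxes lie only in the window of the start farthest downstream in the gene. GGGCGG, a GC box, was found in 21 of 25 genes against 38.2%, and CACGTG, an E-box that SREBP can also bind, in 6 of 25 against 8.09%. What lies behind the distance of these shares from those of all genes was not tested. The windows are shown for Hmgcs1, Mvd and Idi1 in the mevalonate part, Lss and Msmo1 farther down, and the regulator Insig1. Capitals mark CCAAT or its complement ATTGG, the TCACNCCAC match in Hmgcs1 and the CACGTG match in Insig1.
Hmgcs1, chr13:119690161-119690320, plus strand: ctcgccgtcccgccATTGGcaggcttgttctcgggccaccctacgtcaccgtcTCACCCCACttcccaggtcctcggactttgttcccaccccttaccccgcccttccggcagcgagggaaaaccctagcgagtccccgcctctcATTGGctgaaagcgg
Mvd, chr8:122443433-122443502, minus strand: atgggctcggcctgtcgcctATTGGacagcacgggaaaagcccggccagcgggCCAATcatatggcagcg
Idi1, chr13:8885546-8885605, plus strand: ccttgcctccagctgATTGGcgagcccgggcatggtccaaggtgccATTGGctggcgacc
Lss, chr10:76531525-76531574, plus strand: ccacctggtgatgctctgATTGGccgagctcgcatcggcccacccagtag
Msmo1, chr8:64733619-64733748, minus strand: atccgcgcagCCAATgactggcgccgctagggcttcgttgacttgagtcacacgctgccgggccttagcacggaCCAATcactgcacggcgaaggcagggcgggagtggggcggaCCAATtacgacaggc
Insig1, chr5:28071182-28071326, plus strand: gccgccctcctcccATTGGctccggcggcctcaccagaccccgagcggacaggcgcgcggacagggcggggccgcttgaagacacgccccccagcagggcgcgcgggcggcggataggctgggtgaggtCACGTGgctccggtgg
Hmgcs1 carries its TCACNCCAC match between 2 CCAAT boxes, and it rose by 0.62 ± 0.11. Mvd and Idi1 each hold 2 boxes within 60 bases of the start. Mvd rose by 1.00 ± 0.17 and Idi1 had 0.29 ± 0.14 and was not called. Msmo1 holds 3 boxes and Lss 1 box in the stretch shown, and neither was called. The sterol isomerase Ebp, which had -0.11 ± 0.17, also holds CCAAT boxes. In Acat2 none was found, which says only that these letters are absent from that window.

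**Figure D5:**
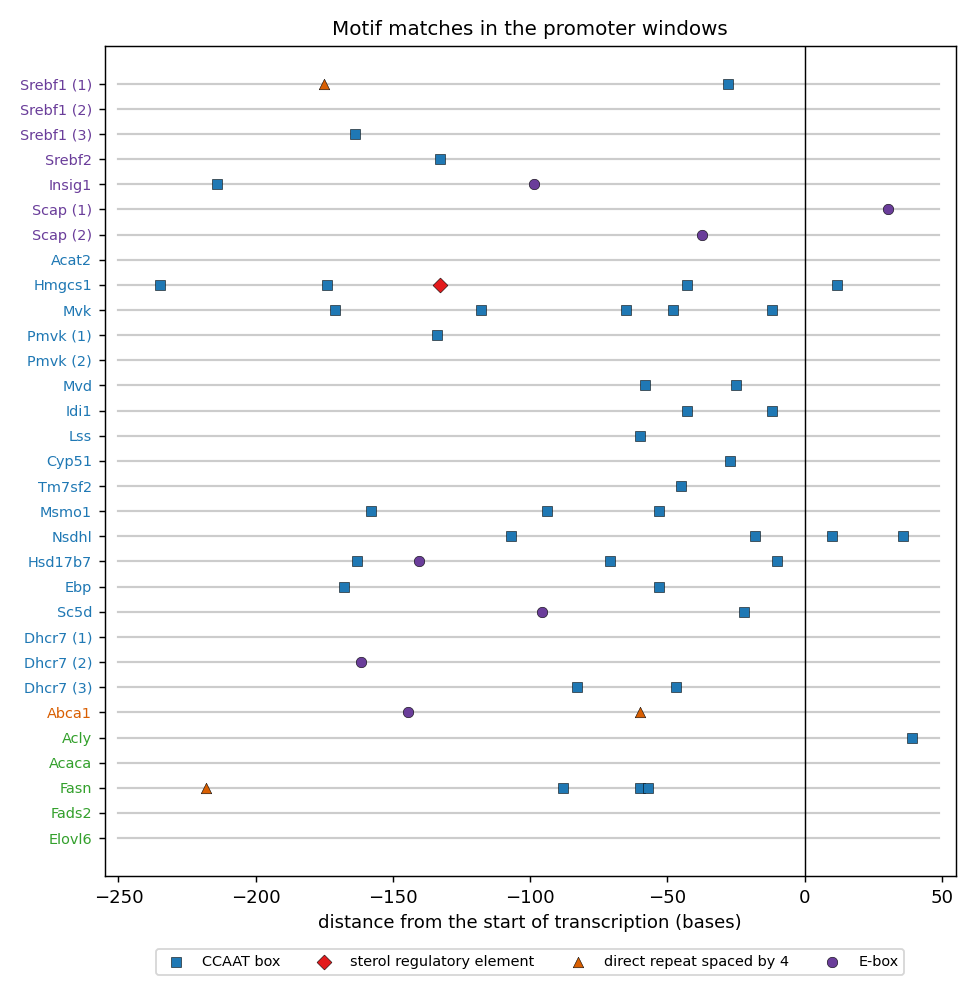
Matches of 4 motifs in the promoter windows of 25 genes, by distance in bases from the start of transcription (0), with numbers after a name for genes with several windows and names coloured by role. CCAAT boxes lie upstream of the start in most sterol enzymes, and the direct repeat appears in Srebf1, Abca1 and Fasn only among these genes.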

How the data were processed

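Total RNA libraries, prepared per the labels' protocols with a stranded kit and depletion of ribosomal and globin transcripts, were sequenced paired-end on 2 lanes each. The authors deposited FPKM values per Ensembl gene ID in 2 tables. Per the submitters' processing notes, tools were STAR 2.4.2, Cufflinks 2.2.1, Trimmomatic 0.35, bcl2fastq 1.8.4 and FastQC 0.10.1, with mm10. The sources used here do not give the annotation release, normalization options or use of strand. GENCODE M21 (GRCm38, the mm10 build) named 36423 of 38282 IDs.

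Differences were tested with limma 3.58.1 (lmFit, eBayes with trend; R 4.3.3) on log2(FPKM + 1), over 11423 genes with a mean of at least 1 FPKM, with the table as a block, two-sided, with Benjamini-Hochberg adjustment. Each gene had 1 residual degree of freedom, to which the prior added 4.70. The block was used because the tables were made separately. The labels do not tie a number to an animal or a day, and deviations of same-numbered libraries correlated at 0.0869 over genes.

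Genes, lists and motifs were chosen with earlier results of these data known. All 33 genes are named. Of related lists, called genes and, where none was called, the gene with the largest difference were to be named; Mbtps1, Nr1h2, Nr1h3, Lpcat3, Mylip and the cell markers were added for their roles, and Nus1 and Acsl1 after their values were seen. Depth was estimated from single-transcript genes over 1 kb. Of their low values, 80.2% to 84.1% came within 0.15 fragment of a whole count of fragments. The GC and length correction was a loess fit (span 0.3) to each table's differences. Other alternatives were pseudocounts, filters, scalings, no trend, no block and each library left out; the last used no block and libraries scaled by the median of ratios, and a lone library was assumed to vary like the others. Shared sequence was counted as 50-base stretches of GENCODE transcripts.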

Additional observations from a re-analysis of the deposited data

How the results depend on the processing

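Of the 33 genes 13 were called higher. That count was 8 with a common sum, 1 without limma's trend (Abcg1), 6 without the replicate block, and 0 to 0 with a library left out; 17, 16, 11, 14, 14, 13 and 11 followed from pseudocounts of 0.1 and 0.5, no filter, a mean of at least 5 FPKM, the common sum without small RNA genes, the median of ratios and the GC and length correction. Without the block, Srebf2, Insig1, Pmvk, Abcg1, Scd2 and Fads2 still passed, and calls among all genes were 256 higher and 240 lower against 717 and 501. Differences are the same in that fit and their errors change, so a call lost there is weaker evidence for an equal difference. The labels do not say that numbers pair samples, so they favour neither fit. Calls among all genes were also 442 and 298 with no filter, 106 and 150 without trend, 376 and 1064 with a common sum and 624 and 1237 with that sum without small RNA genes, by limma. No gene of the 33 was called lower in any setting (0 also at an unadjusted p under 0.05). Synthesis minus export was -0.95 as reported and -1.32 with a pseudocount of 0.1 and -1.06 to -0.85 with a library left out. The median of sterol enzymes was 0.60 and fell to 0.35 with a common sum, where the median of all genes was -0.20; with a library left out it was 0.44 to 0.73, and that of fatty acid enzymes 0.18 to 0.93 against 0.50. Among single genes, Scap (-0.0748), Acly (-0.0155) and Elovl6 (-0.0733) reversed with a common sum. With a library left out Scap ran from -0.0884 to 0.3694, Ebp from -0.2865 to 0.0172 and Acaca from -0.0045 to 1.1288. In the 4 fits with a library left out, differences of the 13 called genes stayed above 0, from 1.75 to 2.08 for Abcg1, 0.61 to 1.34 for Mvd and 0.69 to 1.46 for Srebf1, for example, with adjusted p from 0.122 to 0.520 over all 13. Values of Scd1 in Th0 rest on few fragments, and the cause of other shifts was not tested.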
